A study of Homo sapiens with 6 samples.

Results

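Homologous recombination repairs a broken DNA molecule by copying the intact sister, and the Fanconi anemia pathway uses the same machinery once it has opened up a crosslink between the strands. In outline, a break is sensed and signalled, its ends are trimmed to single strands, a protein filament forms on them and invades the sister, the joined molecules are taken apart, and at a crosslink the Fanconi core complex first marks FANCI and FANCD2 with ubiquitin. Many of these genes are known to be transcribed mainly in cells that are preparing or carrying out DNA replication, and several are known for inherited breast cancer risk. A list of 43 such genes, set by name, was sorted into 5 steps. Sensing had 7 genes, end resection 3, strand exchange 13, resolution of joint molecules 8 and crosslink repair 12. All 43 were among the 36517 genes of the count table (MRE11, the nuclease of the sensor complex, under its older symbol MRE11A), and all 43 were among the 19628 genes tested.

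The study asked which transcripts respond when tRF-1-Ser, a small RNA derived from a serine transfer RNA precursor, is knocked down. MDA-MB-453 cells, an established human breast cancer line with luminal and apocrine features, carried either a lentiviral short hairpin against tRF-1-Ser (shtRF, n = 3) or a negative-control hairpin in the same kind of vector (control, n = 3), and mRNA was sequenced at day 3. Both groups were thus lentivirus-treated cells of 1 line, there were no untreated cells, and 1 hairpin stood for the knockdown. The sources do not say whether the 3 replicates came from separate transductions, although the methods call them biological replicates and the knockdown cells stable; the p-values measure the spread between these libraries, part of which may be technical, and the small RNA itself is not measured in mRNA libraries.

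The 6 libraries held 63541413 to 78917459 counts each, and no library stood apart from its group. The 9 luminal and apocrine epithelial markers given here, among them ERBB2 and KRT8, lay between 75.9 and 2691 CPM (counts per 1000000, library totals being corrected by TMM factors) in the group means, and their sum ran from 4607 to 4689 CPM in control and from 5802 to 6265 CPM in shtRF. KRT8 (1557 to 2691 CPM in the means), KRT18 (386 to 601 CPM) and TFAP2B were called higher, ERBB2 and GATA3 lower, and the median log2 fold change of the 9 was 0.04. ESR1, PGR and CD44 read at most 0.387 CPM in any library. Of 7 fibroblast markers measured only COL1A1 exceeded 0.291 CPM in any library, and the sum of the list was 29.8 to 35.7 CPM in control and 20.6 to 21.4 CPM in shtRF. Of 6 leukocyte markers only CD68 exceeded 0.154 CPM in any library, and that sum was 4.40 to 5.39 CPM in control and 5.81 to 8.20 CPM in shtRF. The defining markers PDGFRB, DCN and CD3E were at 0 in the shtRF mean. The part of COL1A1 or CD68 expressing cells in the results was not tested. In bulk RNA of this kind, fewer cells that express a gene and less RNA per cell cannot be told apart.

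The recombination and Fanconi genes were mostly lower in shtRF, by modest amounts. Of the 43, 24 fell, 2 rose and 17 did not pass an adjusted p of 0.05 in edgeR's quasi-likelihood test. Over all genes tested, 18.9% were called lower and 20.6% were called higher. The median log2 fold change of the 43 was -0.20, against -0.0025 over all tested genes, and 36 of the 43 values were negative. They ran from -0.71 for RAD54L to 0.23 for RAD51C, the latter short of the threshold. In 27 of the 43 genes all 3 shtRF libraries lay below all 3 control libraries, which held for 23.8% of all tested genes, and in 5 they lay above, which held for 24.9%. Only RAD54L, 1 of the 43, was called lower by more than 1.5-fold, against 1341 of the 19628 genes tested. The changes within the list were thus mostly small. Together the 43 genes took 0.202% to 0.206% of the counts of a control library and 0.178% to 0.184% of those of an shtRF library.

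**Figure D1:**
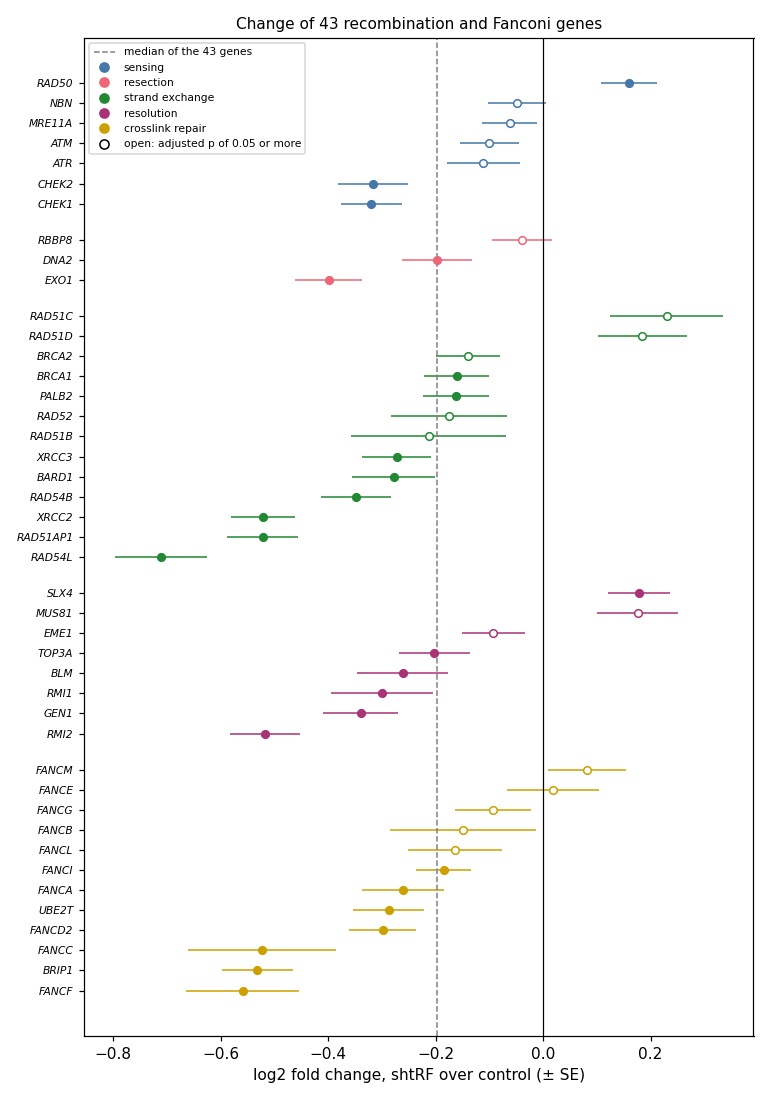
Log2 fold change of each of the 43 genes in shtRF over control with its standard error (x axis), grouped by step (colours, y axis). Filled points passed an adjusted p of 0.05, and the dashed line is the median of the 43 genes at -0.20. Of the filled points, 24 lie to the left of 0 and 2, RAD50 and SLX4, to the right.

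Lower genes were found at all 5 steps. They made up 28.6% of the sensing genes and 58.3% to 66.7% of each other step, against 18.9% of all tested genes. Of the 7 sensing genes 2 were lower and 1 higher (median log2 fold change -0.10), of the 3 resection genes 2 were lower (median -0.20), of the 13 strand exchange genes 8 were lower (median -0.21), of the 8 resolution genes 5 were lower and 1 higher (median -0.23) and of the 12 crosslink repair genes 7 were lower (median -0.22). Summed over their members, sensing transcripts came to 818 to 831 CPM in control and 819 to 853 CPM in shtRF, overlapping ranges. The difference in the means was 1.09%. RAD50, the most abundant member, was also the only 1 of the 7 with a positive log2 fold change. Leaving it out was a choice made after seeing the data and could only lower the difference. The other 6 genes summed to 449 to 463 CPM in control and 418 to 426 CPM in shtRF, without overlap (-7.42% in the means). The summed CPM of the other 4 steps did not overlap between the groups, and the difference of the shtRF mean from the control mean was -18.3% for strand exchange, -13.9% for crosslink repair, -11.6% for resection and -9.69% for resolution. The differences between steps were not tested.

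Transcript levels differed between members far more than between groups. Per kilobase of exon, control levels ran from 0.534 RPKM for FANCC to 38.1 RPKM for RAD50. After RAD50 came UBE2T at 32.1 ± 0.987 RPKM (SD, n = 3), MRE11A at 25.3 ± 0.587 RPKM, EME1 at 22.9 ± 0.716 RPKM, RMI2 at 21.8 ± 2.28 RPKM and RAD51AP1 at 21.0 ± 0.151 RPKM. EME1, RMI2 and RAD51AP1 are neighbours in this order whose means lie within the SD of RMI2. At the other end stood RAD51B at 0.574 ± 0.106 RPKM and FANCC at 0.534 ± 0.0739 RPKM, which do not differ beyond their spread, then RAD51D at 0.963 ± 0.0312 RPKM and RAD51C at 1.11 ± 0.0960 RPKM. Some high transcripts, such as UBE2T and RMI2, and some low ones, such as FANCC and FANCF, fell. Others at both ends did not: RAD50 rose, and MRE11A, EME1, RAD51B, RAD51C and RAD51D were not called.

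**Figure D2:**
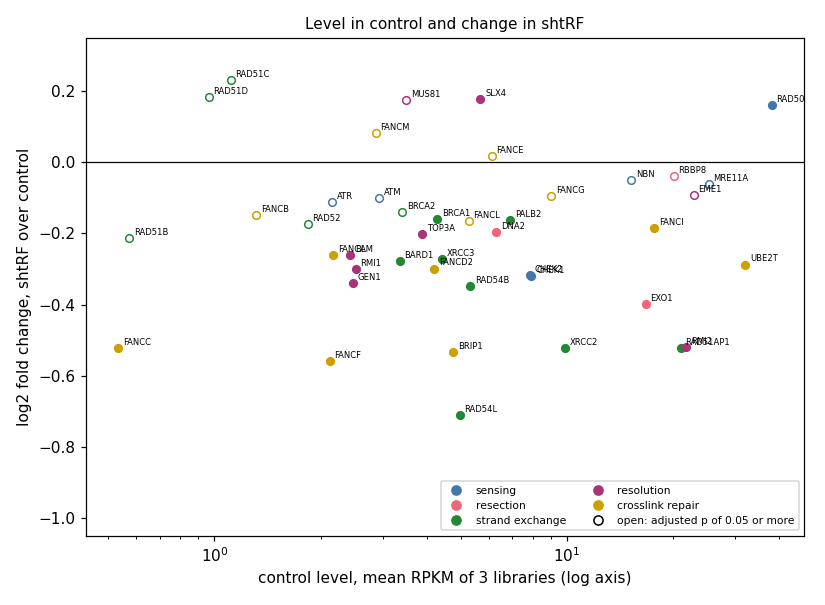
Mean level of each gene in the 3 control libraries (x axis, RPKM, log axis) and its log2 fold change in shtRF over control (y axis), coloured by step; open points did not pass an adjusted p of 0.05. Genes that fell are found from 0.534 RPKM (FANCC) to 32.1 RPKM (UBE2T).

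E2F factors are textbook regulators of replication-phase genes, so the promoters of the list were searched for their letters. RefSeq promoters (GRCh38.p14, 250 bases before to 50 after the start) were at hand for 38 members; NBN, DNA2, RAD54B, RMI2 and FANCI had no entry. An exact match on either strand to TTTCGCGC, TTTGGCGC or TTTCCCGC was found in 5 of the 38 (13.2%). The shares were 2.79% of 27305 promoters of this length and 4.43% of those of tested genes. The 5 were EXO1, XRCC2, GEN1, FANCC and FANCD2, all among the 20 members with a promoter that fell, and 0 of the other 18 held a match. Each match is shown 5′ to 3′ along its gene's strand, with the matching letters in capitals and 10 bases on each side. Where the capitals start with GCG the match is on the opposite strand. The window of EXO1 is chr1:241848198-241848225, that of XRCC2 chr7:152676103-152676130 (minus strand), that of GEN1 chr2:17753860-17753887, those of FANCC chr9:95317864-95317891 and chr9:95317738-95317765 (minus strand), and that of FANCD2 chr3:10026425-10026452.
EXO1: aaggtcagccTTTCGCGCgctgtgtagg
XRCC2: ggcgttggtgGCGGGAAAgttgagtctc
GEN1: agttgcggggTTTCGCGCcgccggagtc
FANCC, upstream: cggggcttccGCGCGAAAccgggaacac
FANCC, nearer the start: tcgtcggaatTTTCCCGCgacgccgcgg
FANCD2: gtcgggcctgGCGGGAAAgtcgaaaact

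Counting the first transcribed base as 1, the capitals begin at base 5 in EXO1, 22 in XRCC2 and 2 in GEN1, at -2 in FANCD2, and at -172 and -46 in FANCC. The CCAAT box, letters CCAAT, was present in 16 of the 38 promoters (42.1%, against 35.7% of all promoters and 37.0% of those of tested genes), which was 12 of the 20 that fell and 4 of the other 18. The core letters of NRF1, TGCGCA, were present in 9 (23.7%, against 8.42% of all promoters and 13.1% of those of tested genes), which was 3 of the 20 and 6 of the 18. The cell cycle homology region, TTTGAA or TTCGAA, was present in 4 (10.5%, against 16.6% of all promoters and 11.5% of those of tested genes). These were 3 of the 20 and 1 of the 18. The E-box CACGTG was present in 3 (7.89%, against 7.43% and 10.0%), which was 1 of the 20 and 2 of the 18. These matches are letters in a window. The splits between members that fell and the others are counts only, and no link to the expression values was tested.

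Sensing begins with the MRN complex of MRE11, RAD50 and NBN, which holds and trims broken ends. RAD50 (chr5:132556019-132646344) read 360, 369 and 369 CPM in the control libraries and 394, 428 and 404 CPM in the shtRF libraries. Every shtRF library was above every control library, and RAD50 rose by 0.16 ± 0.053 (SE) on the log2 scale (adjusted p = 0.0194). This call was lost with any of 4 libraries left out (adjusted p = 0.0920 without control replicate 1, 0.0525 without control replicate 2, 0.103 without shtRF replicate 2 and 0.0514 without shtRF replicate 3), under upper quartile scaling (0.0711) and in limma-trend on log2(RPKM + 0.1) (0.0538). MRE11A read 195.7, 189 and 188 CPM in control and 180, 184 and 185 CPM in shtRF, a shift too small to pass (log2 fold change -0.06, adjusted p = 0.361), although the groups did not overlap and limma-trend did call it (0.0458). NBN read 91.4, 87.9 and 97.3 CPM in control and 87.6, 91.6 and 88.3 CPM in shtRF, with overlapping groups (-0.05, adjusted p = 0.517).

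The apical kinases are ATM, which answers to double-strand breaks, and ATR, which answers to single-stranded DNA. ATM read 62.4, 66.1 and 64.1 CPM in control and 62.6, 59.0 and 58.0 CPM in shtRF (-0.10, adjusted p = 0.161). ATR read 26.4, 25.0 and 28.1 CPM in control and 25.7, 24.5 and 23.4 CPM in shtRF (-0.11, adjusted p = 0.212). In both the groups overlapped and neither passed. ATR shares 16.4% of its exonic bases with RP11-383G6.4 on the opposite strand, which was near 0.14 CPM in both groups.

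Both effector kinases downstream fell. CHEK1 (chr11:125625136-125676255), the target of ATR, read 51.7, 50.2 and 51.3 CPM in control and 42.5, 41.4 and 38.8 CPM in shtRF, and fell by 0.32 ± 0.057 on the log2 scale (adjusted p = 9.70e-05). CHEK2 (chr22:28687743-28742422), the target of ATM, read 31.1, 30.9 and 34.0 CPM in control and 26.8, 25.6 and 24.6 CPM in shtRF, and fell by 0.32 ± 0.065 (adjusted p = 4.65e-04). In both genes the lowest control library was above the highest shtRF library, a decrease of 19.9% and 19.7%.

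Resection turns a broken end into a single-stranded tail. RBBP8, which encodes CtIP and starts resection together with MRN, read 98.6, 98.6 and 105 CPM in control and 92.2, 103 and 98.4 CPM in shtRF, with overlapping groups (log2 fold change -0.04, adjusted p = 0.624). The long-range nucleases were lower. EXO1 (chr1:241847967-241895148), one of those that carry an E2F match, read 66.7, 63.6 and 73.8 CPM in control and 49.3, 54.9 and 50.5 CPM in shtRF, and fell by 0.40 ± 0.063 on the log2 scale (adjusted p = 2.40e-05), or 24.2%. DNA2, the nuclease of the other long-range route, fell by 0.20 (adjusted p = 0.0188), a call lost without control replicate 2 (0.0658), shtRF replicate 2 (0.0901) or shtRF replicate 3 (0.0771).

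Strand exchange starts with the proteins that prepare the single-stranded tail for invasion. BRCA1 (chr17:43044295-43170245) and its partner BARD1 act upstream, PALB2 bridges BRCA1 to BRCA2, and BRCA2 loads the filament. BRCA1 read 35.9, 39.2 and 37.7 CPM in control and 32.6, 35.1 and 33.2 CPM in shtRF, non-overlapping but close, and fell by 0.16 ± 0.061 on the log2 scale (adjusted p = 0.0394). PALB2 read 32.6, 33.0 and 31.0 CPM in control and 29.3, 28.9 and 28.1 CPM in shtRF, and fell by 0.16 ± 0.061 (adjusted p = 0.0382). Both calls were marginal. That of BRCA1 was lost without control replicate 2 (0.125), control replicate 3 (0.0614), shtRF replicate 1 (0.115) or shtRF replicate 3 (0.129), and that of PALB2 without control replicate 1 (0.0726), control replicate 2 (0.0967), shtRF replicate 2 (0.0966) or shtRF replicate 3 (0.144). Without a filter on low counts both were lost (0.0694 for BRCA1 and 0.0791 for PALB2).

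BRCA2 (chr13:32315474-32400266) read 41.0, 43.4 and 38.9 CPM in control and 37.1, 38.1 and 36.8 CPM in shtRF. Its groups did not overlap, but the difference of -0.14 ± 0.059 on the log2 scale did not pass (adjusted p = 0.0660). It did pass without control replicate 3 (adjusted p = 0.0262), under upper quartile scaling (0.0205), with a filter at 1 CPM (0.0273) and with halved counts (0.0400). BARD1 fell by 0.28 (adjusted p = 0.0062) and was called lower in every alternative setting. Of these 4 genes of the BRCA1 to BRCA2 axis, BARD1 was the only one whose call did not change with the setting.

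XRCC2, XRCC3, RAD51B, RAD51C and RAD51D are related proteins that stabilise the filament, and 2 of the 5 were called lower. XRCC2 (chr7:152644779-152676165), which also carries an E2F match, read 45.5, 48.4 and 47.2 CPM in control and 31.5, 34.6 and 32.3 CPM in shtRF. The gap between the groups was larger than the range within either, and XRCC2 fell by 0.52 ± 0.059 on the log2 scale (adjusted p = 2.96e-07), or 30.3%. XRCC3 fell by 0.27 (adjusted p = 0.00163), but KLC1, read from the opposite strand, covers 76.7% of its exonic sequence with exons of its own and, at 243 CPM in control, rose by 0.22 (adjusted p = 0.00124). Whether counting used strand is not given in the sources used here, so the value of XRCC3 is uncertain.

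The other members of this family were not called. RAD51B had a log2 fold change of -0.21 (adjusted p = 0.264), RAD51C of 0.23 (adjusted p = 0.0892) and RAD51D of 0.18 (adjusted p = 0.0844), and the last of these, like RAD51C, had its 3 shtRF libraries above its 3 control libraries. RAD51B, RAD51C, RAD51D and XRCC2 form 1 complex in the cell. Of its transcripts, that of XRCC2 was the only one called lower, and it stood at 9.87 ± 0.347 RPKM in control, above the 0.574 to 1.11 RPKM of the other members.

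The factors that act in pairing and strand invasion included the largest decrease of the list. RAD54L (chr1:46247688-46278473), a motor protein that helps the filament invade, read 16.1, 15.99 and 14.9 CPM in control and 10.5, 9.48 and 8.74 CPM in shtRF. No shtRF library came near the control range, and RAD54L fell by 0.71 ± 0.086 on the log2 scale (adjusted p = 7.71e-07), or 38.9%. It shares 25.1% of its exonic bases with LRRC41 on the opposite strand, whose log2 fold change was -0.12 (adjusted p = 0.129). RAD51AP1 (chr12:4538798-4560048), which stimulates joint formation, read 52.5, 52.5 and 53.5 CPM in control and 38.5, 39.3 and 32.5 CPM in shtRF. The control libraries were nearly level, the shtRF libraries were all lower, and RAD51AP1 fell by 0.52 ± 0.066 (adjusted p = 1.32e-06).

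RAD54B, a paralog of RAD54L, read 28.2, 27.7 and 27.4 CPM in control and 22.0, 22.7 and 20.7 CPM in shtRF, and fell by 0.35 ± 0.065 on the log2 scale (adjusted p = 1.77e-04). Its groups did not overlap, but it shares 51.3% of its exonic bases with FSBP on the same strand, which fell by 0.37 (adjusted p = 1.67e-04), and the reads of the pair cannot be told apart there. RAD52, a mediator with a back-up role in human cells, stood at -0.17 on the log2 scale with overlapping groups (adjusted p = 0.219).

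**Figure D3:**
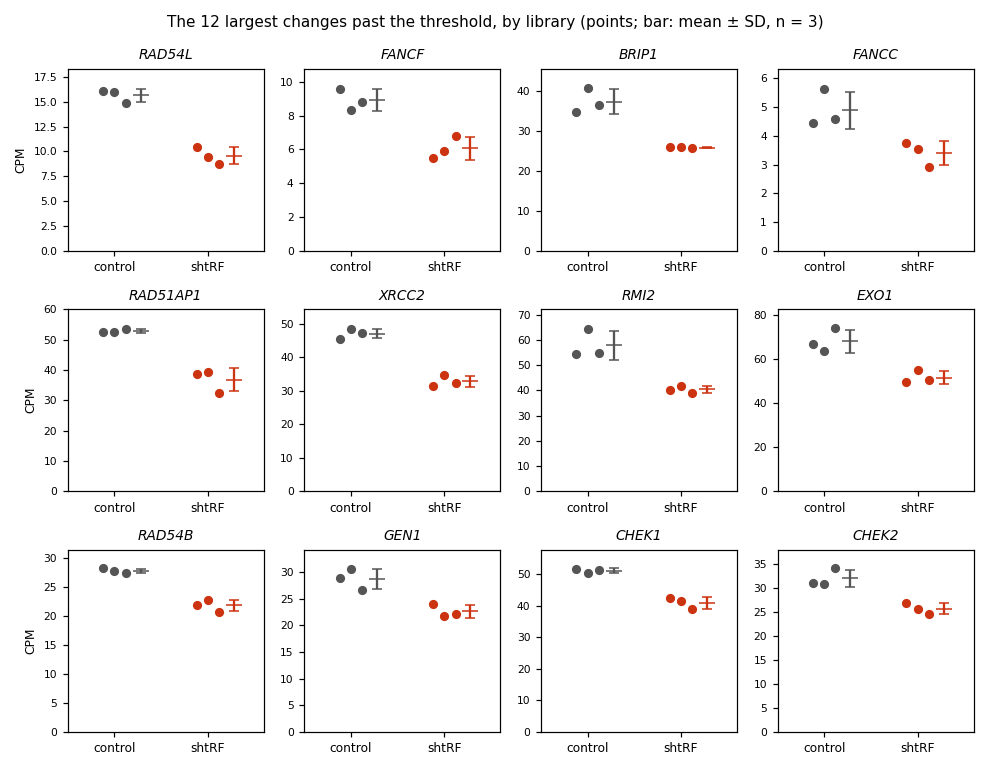
CPM in each of the 6 libraries (points) with the mean and SD of the 3 libraries of each group (bars) for the 12 genes with the largest change past the threshold; y axes start at 0. In all 12 genes the 3 shtRF libraries lie below the 3 control libraries, in RAD54L with the largest decrease as a ratio (38.9%).

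Resolution separates the joined molecules by 2 routes. Dissolution is the work of BLM, a helicase, with the topoisomerase TOP3A and the adaptors RMI1 and RMI2, and all 4 transcripts fell. RMI2 (chr16:11249619-11351762) read 54.3, 64.4 and 54.8 CPM in control and 40.2, 41.8 and 39.1 CPM in shtRF. Control replicate 2 was high, yet the other control libraries were also above every shtRF library, and RMI2 fell by 0.52 ± 0.065 on the log2 scale (adjusted p = 1.37e-06). BLM (chr15:90717327-90816165) read 15.2, 16.4 and 15.3 CPM in control and 11.7, 14.2 and 13.3 CPM in shtRF. It fell by 0.26 ± 0.085 (adjusted p = 0.0172), short of the threshold without control replicate 2 (0.0671) or shtRF replicate 1 (0.103).

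RMI1 fell by 0.30 (adjusted p = 0.0150; 0.0539 without control replicate 2, 0.0572 without shtRF replicate 2). TOP3A fell by 0.20 (adjusted p = 0.0177; 0.0516 without control replicate 2, 0.0504 without shtRF replicate 2, 0.0772 without shtRF replicate 3). Resolution therefore had 2 lower genes without control replicate 2 and 3 without shtRF replicate 2, in place of 5.

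The nucleases that cut joint molecules were mixed. GEN1 (chr2:17753858-17788941), a Holliday junction resolvase and a carrier of an E2F match, read 28.8, 30.5 and 26.6 CPM in control and 24.0, 21.8 and 22.1 CPM in shtRF, and fell by 0.34 ± 0.070 on the log2 scale with non-overlapping groups (adjusted p = 4.64e-04). SLX4, the scaffold that gathers the structure-specific nucleases, rose by 0.18 (adjusted p = 0.0159), a call lost without control replicate 2 (0.0802), shtRF replicate 1 (0.0831) or shtRF replicate 2 (0.0679), under upper quartile scaling (0.0537) and in limma-trend (0.167). MUS81 had a log2 fold change of 0.18 (adjusted p = 0.0696; 0.0316 without control replicate 1) and its partner EME1 of -0.09 (adjusted p = 0.228). MUS81 shares 13.9% of its exonic bases with CFL1, which fell by 0.16 (adjusted p = 0.0174), and EME1 shares 16.4% with LRRC59, both on opposite strands.

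Crosslink repair turns on FANCD2 and FANCI, the pair that the core complex and its ubiquitin-conjugating enzyme UBE2T modify. FANCD2 (chr3:10026414-10101930), the last of the genes shown with an E2F match, read 36.0, 35.3 and 32.6 CPM in control and 27.8, 27.5 and 29.1 CPM in shtRF, and fell by 0.30 ± 0.063 on the log2 scale (adjusted p = 5.74e-04). FANCI (chr15:89243949-89317261) read 132, 138 and 135 CPM in control and 119, 120 and 117 CPM in shtRF, and fell by 0.19 ± 0.051 (adjusted p = 0.00576). Neither overlapped between groups. UBE2T also fell, by 0.29 (adjusted p = 0.00125), so the substrate pair and its conjugating enzyme were all called lower.

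Of the 7 core complex genes, FANCF, FANCC and FANCA fell. FANCF (chr11:22622519-22626787), an adaptor of the core, read 9.59, 8.35 and 8.82 CPM in control and 5.48, 5.88 and 6.81 CPM in shtRF, and fell by 0.56 ± 0.11 on the log2 scale (adjusted p = 2.01e-04). FANCC (chr9:95099054-95426796), a core subunit with 2 E2F matches, read 4.44, 5.63 and 4.58 CPM in control and 3.74, 3.52 and 2.92 CPM in shtRF, and fell by 0.52 ± 0.14 (adjusted p = 0.00437). Both are low transcripts with no overlap between groups. FANCA read 22.3, 20.3 and 19.7 CPM in control and 18.6, 16.3 and 17.2 CPM in shtRF, and fell by 0.26 ± 0.076 (adjusted p = 0.00935; 0.0674 without shtRF replicate 2 and 0.0564 in limma-trend). It shares 23.6% of its exonic bases with ZNF276 on the opposite strand, whose log2 fold change was 0.05 (adjusted p = 0.625).

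The other 4 core genes were not called. FANCB had a log2 fold change of -0.15 (adjusted p = 0.421), FANCE of 0.02 (0.892), FANCG of -0.09 (0.321) and FANCL of -0.16 (0.150), the last with 18.7% of its exonic bases shared with VRK2 on the opposite strand. FANCM, the motor protein that anchors the core to DNA, was not called (log2 fold change 0.08, adjusted p = 0.404). BRIP1 (chr17:61681266-61863521), the helicase FANCJ that binds BRCA1, acts downstream of the ubiquitin step. It read 34.7, 40.7 and 36.5 CPM in control and 25.9, 26.0 and 25.6 CPM in shtRF, level among the shtRF libraries and all below control, and fell by 0.53 ± 0.066 on the log2 scale (adjusted p = 1.04e-06).

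Of 57 further genes of the same pathways in 3 lists, 13 were lower (22.8%, against 18.9% of all tested genes) and 8 higher (14.0%, against 20.6%), with a median log2 fold change of -0.08. Leaving out shtRF replicate 2 or shtRF replicate 3 left 8 lower. Without control replicate 1 there were 5 higher.

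Among 19 genes of RPA, which coats single-stranded DNA, and of filament regulation, 5 were lower (26.3%) and 2 higher (10.5%). The shares of all tested genes were 18.9% and 20.6%. RPA1, the large RPA subunit, fell by 0.71 (adjusted p = 3.23e-07), from 26.7 ± 2.25 to 16.3 ± 1.58 CPM (SD, n = 3). C17orf53, the MCM8 to MCM9 loader HROB, read 2.40, 2.13 and 2.04 CPM in control and 1.04, 0.947 and 1.97 CPM in shtRF, and fell by 0.74 (adjusted p = 0.0140). Without shtRF replicate 3, which nearly reached control, its log2 fold change was -1.14, and the call was lost without control replicate 1 (0.0523), shtRF replicate 1 (0.0759) or shtRF replicate 2 (0.0901). SWI5, a mediator of strand exchange, rose by 0.40 (adjusted p = 0.00408), and FBXO18, a helicase that limits recombination, rose by 0.21 (adjusted p = 0.0112) with overlapping groups, a call lost without control replicate 1 (0.0625), control replicate 2 (0.0834) or shtRF replicate 3 (0.0839) and in limma-trend (0.106).

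Among 18 checkpoint and break-signalling genes, 2 were lower (11.1%) and 4 higher (22.2%). These shares are not above or are close to the 18.9% lower and 20.6% higher of all tested genes. CLSPN, which encodes claspin, the adaptor through which ATR activates CHEK1, rose by 0.62 (adjusted p = 2.62e-08), from 189 ± 14.0 to 291 ± 14.5 CPM, while CHEK1 fell. TOPBP1, an activator of ATR, fell by 0.38 (adjusted p = 1.10e-05), and ATRIP, the partner of ATR, fell by 0.33 (adjusted p = 0.00212). FAM175A, the scaffold Abraxas of a BRCA1 complex, rose by 0.38 (adjusted p = 1.77e-05), and shares 25.2% of its exonic bases with MRPS18C on the opposite strand, which rose by 0.45.

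Among 20 Fanconi partners and nucleases, 6 were lower (30.0%) and 2 higher (10.0%), against 18.9% and 20.6% of all tested genes. DCLRE1B, the nuclease Apollo, fell by 0.58 (adjusted p = 0.00101), and USP1, which removes ubiquitin from FANCD2, fell by 0.27 (adjusted p = 4.73e-04). The 2 risers, EME2 at 0.46 (adjusted p = 2.04e-06) and ERCC1 at 0.39 (adjusted p = 1.22e-04), share 30.0% and 28.6% of their exonic bases with SPSB3 and CD3EAP on the opposite strand, which rose by 0.47 and 0.42.

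Genes outside recombination were compared to see whether the decrease went with the rest of the cell cycle. Of 22 replication and S phase genes 12 were lower and 2 higher (median log2 fold change -0.18), and of 20 mitosis genes 10 were lower and 1 higher (median -0.16). The summed level of S phase ran from 2704 to 2863 CPM in control and 2330 to 2507 CPM in shtRF. That of mitosis ran from 5357 to 6245 CPM and 4728 to 5167 CPM. MKI67 alone had 2074 CPM of the mitosis sum in the control mean and 1690 CPM in the shtRF mean. CDT1, which licenses origins, fell by 0.87 (adjusted p = 1.35e-08), GINS2, a part of the replicative helicase, fell by 0.69 (adjusted p = 9.68e-06), and AURKB, a mitotic kinase, fell by 0.64 (adjusted p = 2.07e-06). BIRC5, survivin, fell by 0.38 (adjusted p = 1.43e-04).

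The exceptions were in the same lists. RRM2, the ribonucleotide reductase subunit, rose by 0.18 (adjusted p = 0.0124), E2F1 by 0.17 (adjusted p = 0.0265) and CDK1 by 0.23 (adjusted p = 0.0173), the last with overlapping groups. These higher calls were not stable: E2F1 lost its call in 5 of the 6 fits without 1 library (all but that without control replicate 3), with an adjusted p of 0.0504 to 0.148, and by list S phase had 0 without control replicate 1, control replicate 2 or shtRF replicate 2, and mitosis had 0 without control replicate 2 or shtRF replicate 1. Mitosis had 6 lower genes without shtRF replicate 3. The part of these cell cycle genes in the change of the recombination genes was not tested.

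End joining, the pathway that competes for the same breaks, had 5 lower and 1 higher of 15 genes, with a median log2 fold change of -0.03, against 18.9% lower and 20.6% higher over all genes. Its summed level ran from 3096 to 3293 CPM in control and from 2779 to 2893 CPM in shtRF, without overlap (-11.4% in the means). That sum was mostly made up of a few abundant genes. From control to shtRF their means were 1042 and 925 CPM for PARP1, 549 and 481 CPM for XRCC6, 484 and 388 CPM for PRKDC, and 460 and 415 CPM for XRCC5. PRKDC, the catalytic subunit of DNA-PK, fell by 0.32 (adjusted p = 4.63e-05), LIG3 fell by 0.43 (adjusted p = 7.37e-07), and C9orf142, the core factor PAXX, rose by 0.36 (adjusted p = 9.82e-05). Without shtRF replicate 3 the list had 3 lower and 2 higher genes.

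**Figure D4:**
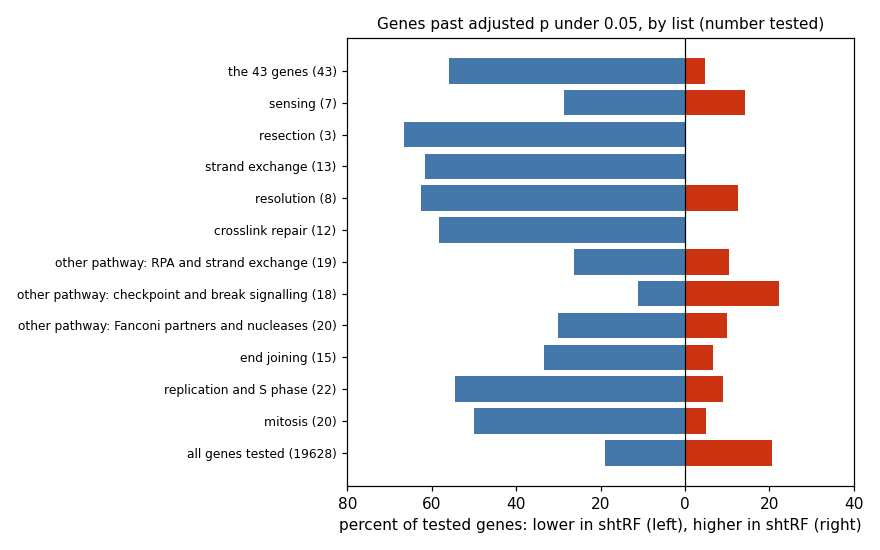
Percent of the tested genes of each list called lower (left, blue) or higher (right, red) in shtRF, with the number tested in parentheses. The 43 genes stand at 55.8% lower and 4.65% higher, the replication and S phase list at 54.5% lower, and the whole table at 18.9% lower and 20.6% higher.

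Many repair genes begin close to the start of a gene on the opposite strand. By the gene coordinates given with the counts (GRCh38), 22 of the 43 members (51.2%) had a gene on the opposite strand starting within 1000 bases. This held for 26.8% of tested genes. For MRE11A, RAD50, ATM, CHEK2 and FANCL the annotated spans of the pair overlapped at the starts, so no stretch lies between them. Of these neighbours 19 were tested and 15 reached 1 CPM in control. A start here is the outermost annotated base of a gene, which need not be the start used in these cells. For FANCC it is chr9:95426796, whereas a promoter window shown above begins at chr9:95317738. Whether the genes of a pair share a promoter was not tested. NBR1, 236 bases from the outermost start of BRCA1, rose by 0.43 ± 0.052 on the log2 scale (adjusted p = 6.90e-07). ZFYVE21, 226 bases from XRCC3, rose by 0.40 (adjusted p = 5.53e-05), and C12orf4, 290 bases from RAD51AP1, rose by 0.28 (adjusted p = 0.00552). Of the 19 neighbours tested, 3 were higher and 3 lower (15.8% each, against 20.6% and 18.9% of all tested genes). The fall of XRCC3 is uncertain for the exons it shares with KLC1, and that of BRCA1 was lost in 4 of the fits without 1 library.

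The 3 lower neighbours were NPAT, MRPL27 and HNRNPK. NPAT, 158 bases from ATM, fell by 0.32 (adjusted p = 0.00404), MRPL27, 6 bases from EME1, fell by 0.27 (adjusted p = 0.00209), and HNRNPK, 95 bases from RMI1, fell by 0.14 (adjusted p = 0.0380), a call lost without control replicate 1 (0.0554), control replicate 3 (0.122), shtRF replicate 2 (0.0849) or shtRF replicate 3 (0.135). Of these 3 partners only RMI1 was itself called lower.

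**Figure D5:**
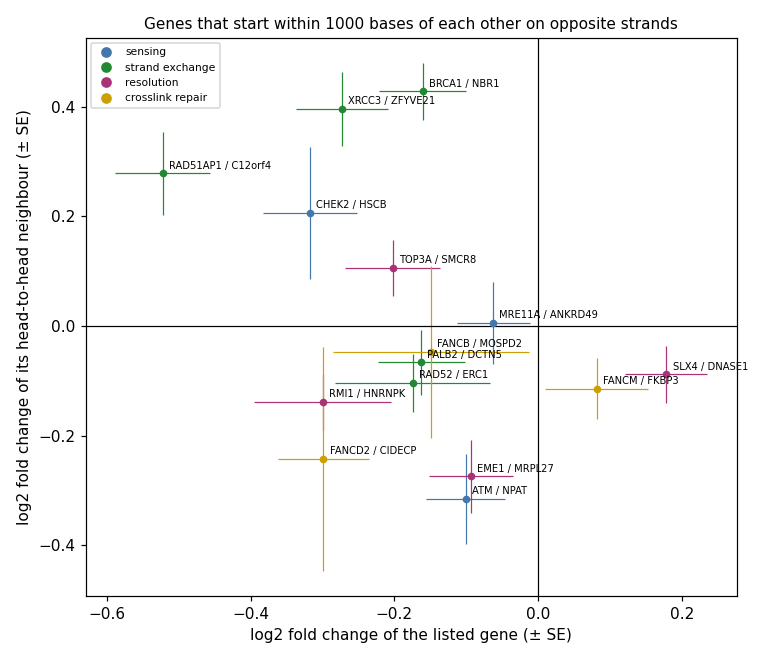
Log2 fold change of each listed gene (x axis) and of the neighbour that starts within 1000 bases on the opposite strand (y axis), both with standard errors, for the 15 pairs whose neighbour reached 1 CPM in control. BRCA1 with NBR1, XRCC3 with ZFYVE21 and RAD51AP1 with C12orf4 lie at the upper left, with negative values of the listed gene and positive values of its neighbour; the value of XRCC3 is uncertain for exons shared with KLC1, and the call of BRCA1 is marginal.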

How the data were processed

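From MDA-MB-453 cells 6 strand-specific mRNA libraries were sequenced as read pairs, and groups were taken from the sample titles. The authors deposited raw counts per gene and RPKM values. The submitters' processing notes name Trimmomatic 0.36, featureCounts, Subread 1.5.1, edgeR 3.12.1 and GRCh38; the aligner and the strand setting are not given in the sources used here. The deposited RPKM values equalled the count divided by exonic length and library total for 100% of 4991 genes (relative tolerance 0.0001), so RPKM was recomputed from the counts. Among counts of 1 to 4, 74.2% to 77.1% were even, so mates may have been counted separately and counting error may be larger than the counts imply. Totals differed by at most 1.24-fold.

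Counts were tested with edgeR 4.0.16 in R 4.3.3 (filterByExpr with a minimum count of 10, TMM, quasi-likelihood test on group, Benjamini-Hochberg adjustment over 19628 genes). DESeq2 1.42.0 and limma 3.58.1 were alternatives, and the tests were tried on simulated data first. There edgeR recovered 18 of 50 genes changed 1.25-fold, 28 of 50 changed 1.5-fold and 46 of 50 changed 2-fold, with 8 false calls among 142. A gene that was not called may therefore still have changed by a small amount. The members, lists and tests were chosen with earlier results of these data known. Values by library are given for 16 leading members fixed by name and the 12 largest changes past the threshold, and for other lists the 2 largest rises and falls. SHLD3 (end joining) and LUM (fibroblast) were not matched, and 2 other entries of the lists are not reported here and were left out of their counts and sums after the tests had been run. Exonic overlap of 10% or more is given beside each member; 29.8% of tested genes have it. Promoters came from RefSeq.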

Additional observations from a re-analysis of the deposited data

How the results depend on the processing

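Results were recomputed with upper quartile or RLE scaling, without a filter (any gene with 1 count), with a filter of 1 CPM in 3 libraries, with DESeq2, limma-trend on log2(RPKM + 0.1), halved counts, a replicate block and each of 6 libraries left out, and, added after seeing the data, over members with under 10% exonic overlap, for the sensing sum without RAD50, and in each of these settings for the genes named from other lists. Of 602 member values, 558 kept direction and side of the threshold, 33 lost the call, 6 gained it and 5 turned sign. All 24 lower members stayed below 0 in every setting and 17 were called in every one. The sign changes were all of FANCE, never called: -0.00083 with the 1 CPM filter, -0.037 with limma-trend, -0.018 with upper quartile scaling and -0.052 to 0.082 with 1 library left out.

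The number of lower members ran from 18 to 24 with 1 library left out, and that of higher members from 0 to 2. Under upper quartile scaling and under limma-trend 0 members were higher, and the median of the 43 was -0.23 and -0.24, while the median of all genes also moved, from -0.0025 to -0.039 and -0.050; with 1 library left out it was -0.23 to -0.18. Among the 57 other pathway genes limma-trend called 5 higher, and leaving out 1 library gave 8 to 14 lower and 5 to 10 higher. The cause was not tested. Over the 35 members with under 10% overlap 20 were lower and 2 higher. Same-numbered libraries deviated together with correlations of 0.059, 0.018 and 0.017, so the numbers were not taken as pairs; with the replicate block 24 members were lower and 2 higher. The largest standard errors, 0.14 on the log2 scale, were those of the low transcripts RAD51B, FANCC and FANCB.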
